A study of Mus musculus with 6 samples.

Results

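The chemokine receptors of tumor Tregs described here were *Ccr1*, *Ccr2*, *Ccr4*, *Ccr6*, *Ccr8*, *Cxcr3*, *Cxcr4*, *Cxcr5* and *Cxcr6*, chosen by name as receptors of inflammatory and tumor homing. All 9 were measured, of 12153 genes in all. Gene expression came from bulk RNA-Seq of 6 libraries of Tregs sorted from B16.F10 tumors, a transplanted mouse melanoma, at day 15 after tumor inoculation. Control mice (3 libraries) carried floxed *Nr3c1*, the gene for the glucocorticoid receptor (GR). *Nr3c1*-Foxp3Cre mice (3 libraries) carried the same floxed *Nr3c1* with Foxp3-YFP/Cre, a Cre recombinase driven from the *Foxp3* locus, the gene for the lineage factor of Tregs. The question was whether Treg GR bears on the receptors by which Tregs are guided in the tumor. No label gives a Foxp3-YFP/Cre allele for the control mice. The labels describe a sort on CD45, CD4 and CD25 and the methods of the study a sort on Foxp3-YFP, so a difference in sorting cannot be told apart from the genotype. Female and male mice were combined in the study, and the sources do not give the sex, age or number of mice behind a library, so the spread between libraries may be in part technical.

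Chemokine receptors are G protein-coupled receptors that steer a cell along gradients of chemokines, small secreted proteins, by way of inhibitory G proteins, and arrestins and receptor kinases then shut the signal down. Tregs leave lymph nodes and enter inflamed tissue with sets of these receptors that mirror those of effector T cells: CXCR3 with the T-bet program, CCR4 and CCR8 with activated Tregs of skin and tumor, CCR6 with Tregs of mucosal tissue and CXCR5 with follicular Tregs. CXCR4, the receptor of CXCL12, holds cells in bone marrow and other CXCL12-rich sites, and its gene is known to respond to glucocorticoids in T cells.

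The deposited values are log2 CPM (read counts scaled to a common library total) after quantile normalization by the authors, read depth is unknown, and the number of libraries limits the precision. Groups were compared by limma over all genes, with a call at an adjusted p under 0.05. *Nr3c1* was lower in each *Nr3c1*-Foxp3Cre library than in each control library (log2 fold change -1.38, SE 0.21, adjusted p = 0.120). Of the GR target genes used as a check, *Tsc22d3*, which encodes GILZ, passed (log2 fold change -1.56, adjusted p = 0.0342), a call that 6 of 16 alternatives lost. *Dusp1*, a MAP kinase phosphatase, was at a log2 fold change of -0.56 without overlap of the groups (adjusted p = 0.652), and *Fkbp5*, a GR co-chaperone, was at -0.16 with overlap. All 7 Treg markers were measured, with summed levels of 3147 to 4407 CPM in control and 3204 to 3818 CPM in *Nr3c1*-Foxp3Cre libraries, but *Foxp3* itself was low, at 3.91 and 3.96 log2 CPM. All 5 melanoma markers were present in every library and summed to between 3373 and 9468 CPM, 12 of 12 macrophage or monocyte markers were measured, and 0 of 4 neutrophil markers.

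Across the genotypes, none of the 9 receptors was called, and a pair of them stood lower in *Nr3c1*-Foxp3Cre Tregs before adjustment. *Ccr8* was 30.7% lower on the CPM scale and *Cxcr4* 49.3% lower. The other 7 receptors did not reach an unadjusted p under 0.05 in this fit, and *Cxcr6*, *Ccr6*, *Ccr1* and *Cxcr3* had log2 fold changes between -0.09 and 0.07. The background over all genes is 7 genes called, or 0.0576%. At an unadjusted p under 0.05, 2 of the 9 receptors passed beside 3.26% of all genes, and both were lower, a direction that 1.65% of all genes took at that threshold. With sample quality weights 4 of the 9 passed, *Ccr2* (unadjusted p = 0.012) and *Cxcr3* (unadjusted p = 0.0481) being added, where 11.3% of all genes did. The groups did not overlap for 1 receptor, *Ccr8*, beside 7.41% of all genes. The median log2 fold change was 0.02 over the 9 receptors and -0.00145 over all genes.

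Because these receptors had an unadjusted p under 0.05, the stretches of DNA just upstream of their transcription start sites are shown, from RefSeq on GRCm38.p6. The capitals mark a glucocorticoid receptor half-site, TGTTCT on either strand. The *Cxcr4* stretch is chr1:128592300-128592549 (minus strand) and the *Ccr8* stretch chr9:120091883-120092113 (plus strand), each read 5′ to 3′ toward the gene and ending before its first annotated base.
Cxcr4: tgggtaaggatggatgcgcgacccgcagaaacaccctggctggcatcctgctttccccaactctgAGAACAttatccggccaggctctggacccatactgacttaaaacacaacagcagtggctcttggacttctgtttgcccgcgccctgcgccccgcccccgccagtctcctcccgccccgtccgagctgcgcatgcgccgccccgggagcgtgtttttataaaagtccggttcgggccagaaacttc
Ccr8: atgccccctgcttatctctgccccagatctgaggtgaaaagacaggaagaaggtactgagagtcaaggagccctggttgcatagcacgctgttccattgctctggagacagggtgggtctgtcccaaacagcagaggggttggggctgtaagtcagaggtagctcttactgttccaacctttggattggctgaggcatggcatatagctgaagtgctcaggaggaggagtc
The *Cxcr4* stretch holds 1 half-site, from 185 to 180 bases upstream of the RefSeq start, where it reads as the reverse complement. *Ccr8* holds 0 in its 250 upstream bases. Promoters were matched for 8 of the 9 receptors, with *Cxcr5* not among them, and for 9 promoters in all. Of these, 1 had the half-site within 250 upstream bases, beside 16.1% of all 32851 promoters, so a match at this share is common. The core of the full palindromic GR element, ACANNNTGT, whose reverse complement is itself, was in 0 of the 9, beside 5.84% of all. The upstream bases of *Cxcr4* were rich in G and C (61.2%, with 19 CpG), and those of *Ccr8* less so (53.6%, with 1 CpG), where the medians over all promoters were 52.4% and 6 CpG. A match of letters is a description only, and no binding was measured in these libraries.

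Most of these genes lie on chromosome 9 of mm10. *Cxcr6* (start 123806475, end 123811760), *Ccr1* (123962124 to 123968692) and *Ccr2* (124101950 to 124113557) fall within 307 kb. *Ccr8* (120092114 to 120094906), *Ccr4* (114490316 to 114504916) and *Cxcr5* (44511787 to 44561877) are elsewhere on that chromosome, which makes 6 of 9. *Cxcr4* is on chromosome 1 (128588199 to 128592293), *Ccr6* on chromosome 17 (8236043 to 8257141) and *Cxcr3* on chromosome X (101731535 to 101734269). Values are summed over all exons of a gene. *Ccr2* shares 1.91% of its 50-base windows with other genes, and *Cxcr5* shares 110 exon bases, or 3.30%, with *Bcl9l* on the opposite strand. The sources do not state that the counting kept strand, so reads there cannot be assigned with certainty.

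The levels of the receptors, per kb of merged exons, formed a high and a low set. *Ccr8* led the control libraries at 8.78 ± 0.26 log2 CPM per kb (SD, n = 3), at percentile 99.4 of all genes. *Cxcr6*, the receptor of the membrane-bound chemokine CXCL16, followed at 8.17 ± 0.48 log2 CPM per kb (SD, n = 3), and *Cxcr3*, the receptor of CXCL9 and CXCL10, at 7.65 ± 0.22 (SD, n = 3). *Ccr2* stood alone between the sets at 4.48 ± 0.33 log2 CPM per kb (SD, n = 3). *Cxcr4*, *Ccr1*, *Ccr6* and *Ccr4* lay between 3.08 and 2.87 log2 CPM per kb in control libraries, and each step between these neighbors was smaller than the spread between libraries. *Cxcr5* was lowest, at 0.74 ± 0.83 log2 CPM per kb (SD, n = 3), and a 263.5-fold span separated it from *Ccr8*.

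**Figure D1:**
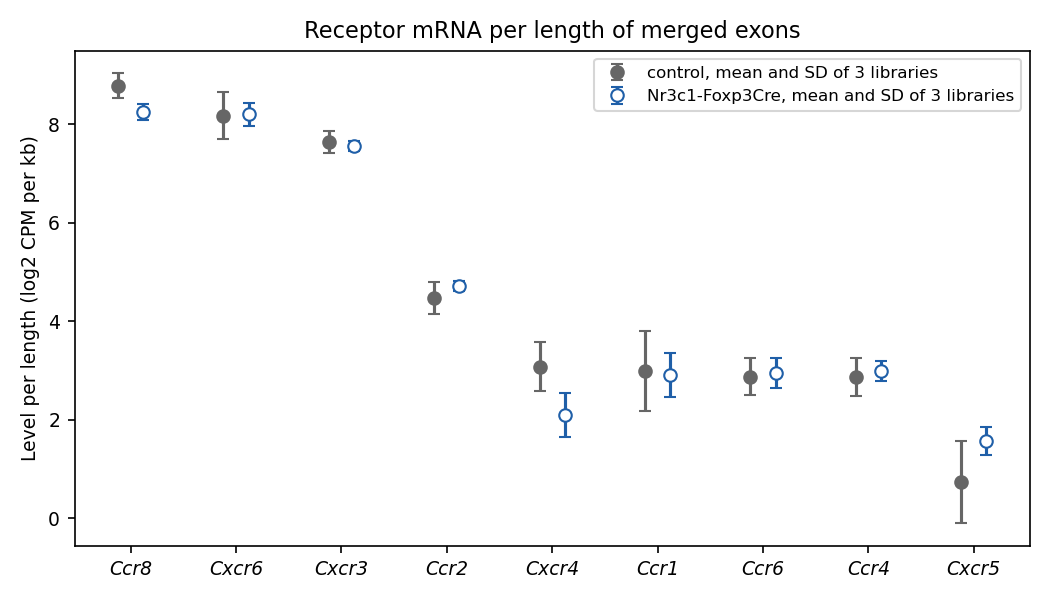
Level of each receptor in log2 CPM per kb of merged exons (y axis) for the 9 receptors (x axis, in control order), as mean and SD of 3 control libraries (filled) and 3 *Nr3c1*-Foxp3Cre libraries (open). *Ccr8*, *Cxcr6* and *Cxcr3* sit above 7.5 in both groups, *Ccr8* meets *Cxcr6* in the *Nr3c1*-Foxp3Cre group, and *Cxcr4* moves from the fifth to the eighth place.

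In *Nr3c1*-Foxp3Cre Tregs the same 3 receptors were at the top, but *Ccr8* no longer led by more than the spread. *Ccr8* was at 8.25 ± 0.17 and *Cxcr6* at 8.20 ± 0.23 log2 CPM per kb (SD, n = 3 each), a gap of 0.05 that did not exceed the spread. *Ccr8* ranked first in 5 of the 6 libraries and *Cxcr6* in the remaining one, *Nr3c1*-Foxp3Cre 3. *Cxcr4* went from rank 5 in control to rank 8 in *Nr3c1*-Foxp3Cre libraries, from percentile 55.8 to 39.9 of all genes, and in *Nr3c1*-Foxp3Cre 2 it was below *Cxcr5*. *Cxcr3* stayed at percentile 98.0 and 97.9. The span from the first to the last receptor was 102.8-fold in this group. In bulk libraries, fewer cells with a receptor and less RNA of it per cell cannot be told apart.

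**Figure D2:**
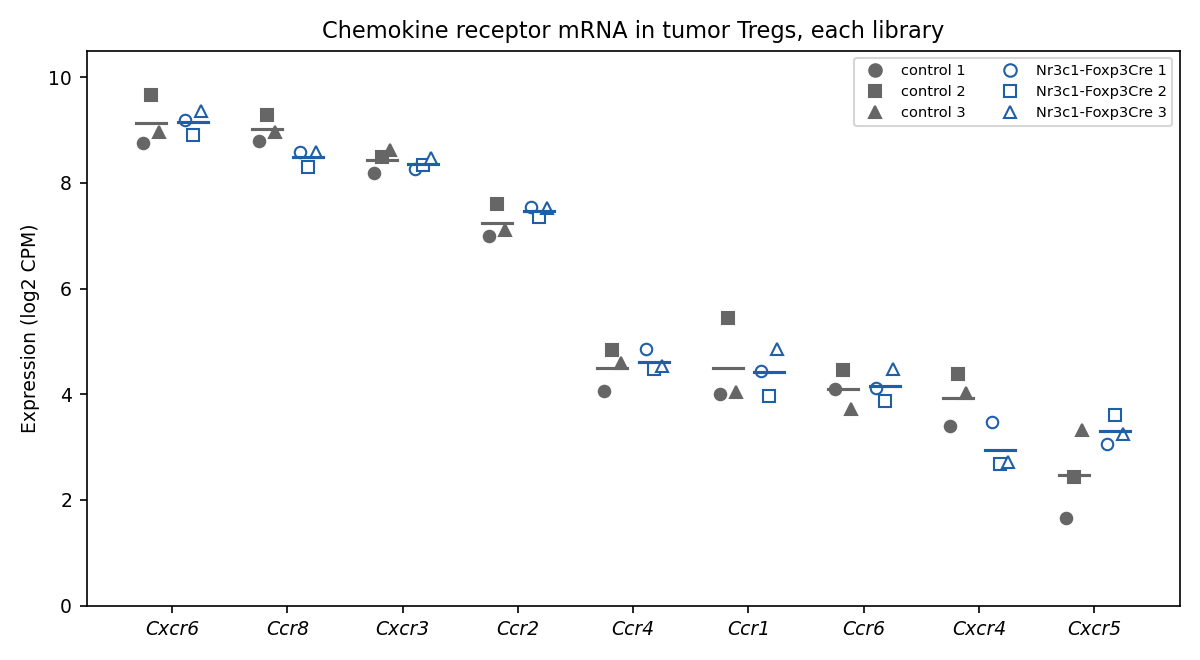
Expression of the 9 receptors (x axis) in log2 CPM (y axis), 1 point a library, with control libraries filled and *Nr3c1*-Foxp3Cre libraries open, and a bar at each group mean. The 3 *Nr3c1*-Foxp3Cre values of *Ccr8* lie under the 3 control values, and those of *Cxcr4* overlap through a single pair of libraries.

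*Ccr8* encodes the receptor of CCL1 and CCL8 and is a marker of highly activated Tregs in tumors. It was at 8.79, 9.29 and 8.96 log2 CPM in control libraries 1 to 3, and at 8.58, 8.29 and 8.58 in *Nr3c1*-Foxp3Cre libraries 1 to 3. Every *Nr3c1*-Foxp3Cre library was below every control library, and the nearest values, 8.58 and 8.79, belonged to *Nr3c1*-Foxp3Cre 3 and control 1. The log2 fold change was -0.53 (SE 0.14, 95% interval -0.85 to -0.21), with an unadjusted limma p of 0.00457 and an adjusted p of 1.0. This p ranked 53 of all 12153 genes. The exact two-sided permutation test gave p = 0.1, the smallest that 3 libraries against 3 allow.

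*Cxcr4* was at 3.40, 4.38 and 4.02 log2 CPM in control libraries 1 to 3, and at 3.47, 2.67 and 2.71 in *Nr3c1*-Foxp3Cre libraries 1 to 3. The groups overlapped because *Nr3c1*-Foxp3Cre 1 lay just above control 1, the lowest control library, while the other two *Nr3c1*-Foxp3Cre libraries were the lowest of all. The log2 fold change was -0.98 (SE 0.32, 95% interval -1.69 to -0.27), the most negative of the 9, with an unadjusted p of 0.0121 and an adjusted p of 1.0. The exact two-sided permutation p was 0.2. On the CPM scale the geometric means were 15.3 in control and 7.74 in *Nr3c1*-Foxp3Cre Tregs, so *Cxcr4* was a low transcript in either group.

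*Cxcr5*, the receptor of CXCL13 that brings T cells into B cell follicles, had the opposite sign. It was at 1.66, 2.44 and 3.33 log2 CPM in control and at 3.05, 3.61 and 3.25 in *Nr3c1*-Foxp3Cre libraries 1 to 3. The control libraries spanned the wider range, and control 3 lay inside the *Nr3c1*-Foxp3Cre range. The log2 fold change was 0.83 (SE 0.40, 95% interval -0.07 to 1.72, unadjusted p = 0.0659, adjusted p = 1.0). With weights for library quality the value was 0.11, and without control replicate 3 it was 1.25 (unadjusted p = 0.00699), so its size depended on how single libraries were counted.

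*Ccr2*, the receptor of the monocyte chemokines CCL2, CCL7 and CCL12, was at 6.99, 7.61 and 7.11 log2 CPM in control and at 7.54, 7.36 and 7.52 in *Nr3c1*-Foxp3Cre libraries. Control 2 was the highest library of all, and the other control libraries were the lowest. The log2 fold change was 0.24 (SE 0.15, 95% interval -0.11 to 0.58, unadjusted p = 0.161), and without control 2 it was 0.42 with an unadjusted p of 0.00426 and an adjusted p of 0.539. *Ccr1*, which binds CCL3, CCL5, CCL6 and CCL9, was at 4.0, 5.44 and 4.04 log2 CPM in control and at 4.45, 3.96 and 4.85 in *Nr3c1*-Foxp3Cre libraries. Again control 2 stood highest and the groups overlapped. Its log2 fold change was -0.07 (SE 0.38, 95% interval -0.93 to 0.79, unadjusted p = 0.854), and without control 2 it was 0.40.

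Of the high set, *Cxcr3* and *Cxcr6* had overlapping groups. *Cxcr3* was at 8.19, 8.49 and 8.63 log2 CPM in control and at 8.26, 8.33 and 8.46 in *Nr3c1*-Foxp3Cre libraries. All 3 *Nr3c1*-Foxp3Cre values lay inside the control range, and the log2 fold change was -0.09 with the narrowest 95% interval of the 9, from -0.37 to 0.19. *Cxcr6* was at 8.75, 9.66 and 8.96 log2 CPM in control and at 9.19, 8.90 and 9.35 in *Nr3c1*-Foxp3Cre libraries. Here too the *Nr3c1*-Foxp3Cre libraries lay inside the control range, with a log2 fold change of 0.02 (95% interval -0.47 to 0.51).

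*Ccr4*, the receptor of CCL17 and CCL22, was at 4.07, 4.83 and 4.58 log2 CPM in control and at 4.85, 4.47 and 4.53 in *Nr3c1*-Foxp3Cre libraries. The groups overlapped, with control 1 the lowest, and the log2 fold change was 0.12 (95% interval -0.36 to 0.61). *Ccr6*, the receptor of CCL20, was at 4.10, 4.47 and 3.72 log2 CPM in control and at 4.12, 3.88 and 4.48 in *Nr3c1*-Foxp3Cre libraries. The highest values of the groups, 4.47 and 4.48, were nearly equal, and the log2 fold change was 0.07 (95% interval -0.47 to 0.61). The intervals of *Ccr4*, *Ccr6*, *Cxcr6* and *Ccr1* still include, in at least 1 direction, a difference of about the size seen for *Ccr8*.

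**Figure D3:**
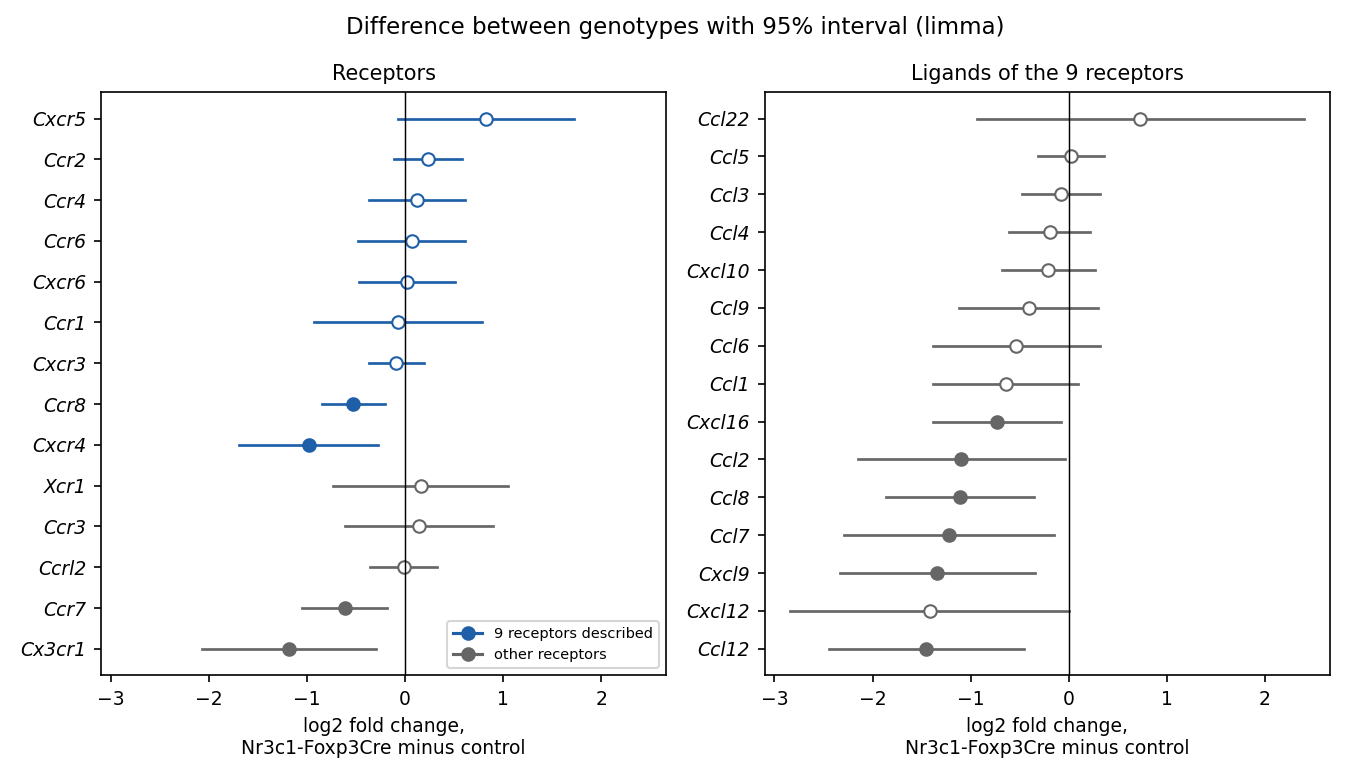
Log2 fold change, *Nr3c1*-Foxp3Cre minus control (x axis), with the 95% interval from limma, for the 9 receptors and 5 other chemokine receptors (left) and 15 ligands (right). Filled points have an unadjusted p under 0.05, none has an adjusted p under 0.05, and among the 9 receptors the filled points are *Ccr8* at -0.53 and *Cxcr4* at -0.98.

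The libraries of a group differed from each other across many of the receptors at once. Control 2 was the highest control library for 7 of the 9 and control 1 the lowest for 8, while *Nr3c1*-Foxp3Cre 3 was the highest of its group for 5 and *Nr3c1*-Foxp3Cre 2 the lowest for 7. Summed melanoma markers took the reverse order in these libraries, at 3373 CPM in control 2 and 9051 CPM in control 1, and at 3766 CPM in *Nr3c1*-Foxp3Cre 3 and 9468 CPM in *Nr3c1*-Foxp3Cre 2. The mean of *Cd3d*, *Cd3e* and *Cd3g*, genes of the T cell receptor complex, was 8.92, 9.29 and 9.24 log2 CPM in control and 9.12, 9.02 and 9.18 in *Nr3c1*-Foxp3Cre libraries. The part of tumor RNA in the spread of the receptors was not tested.

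**Figure D4:**
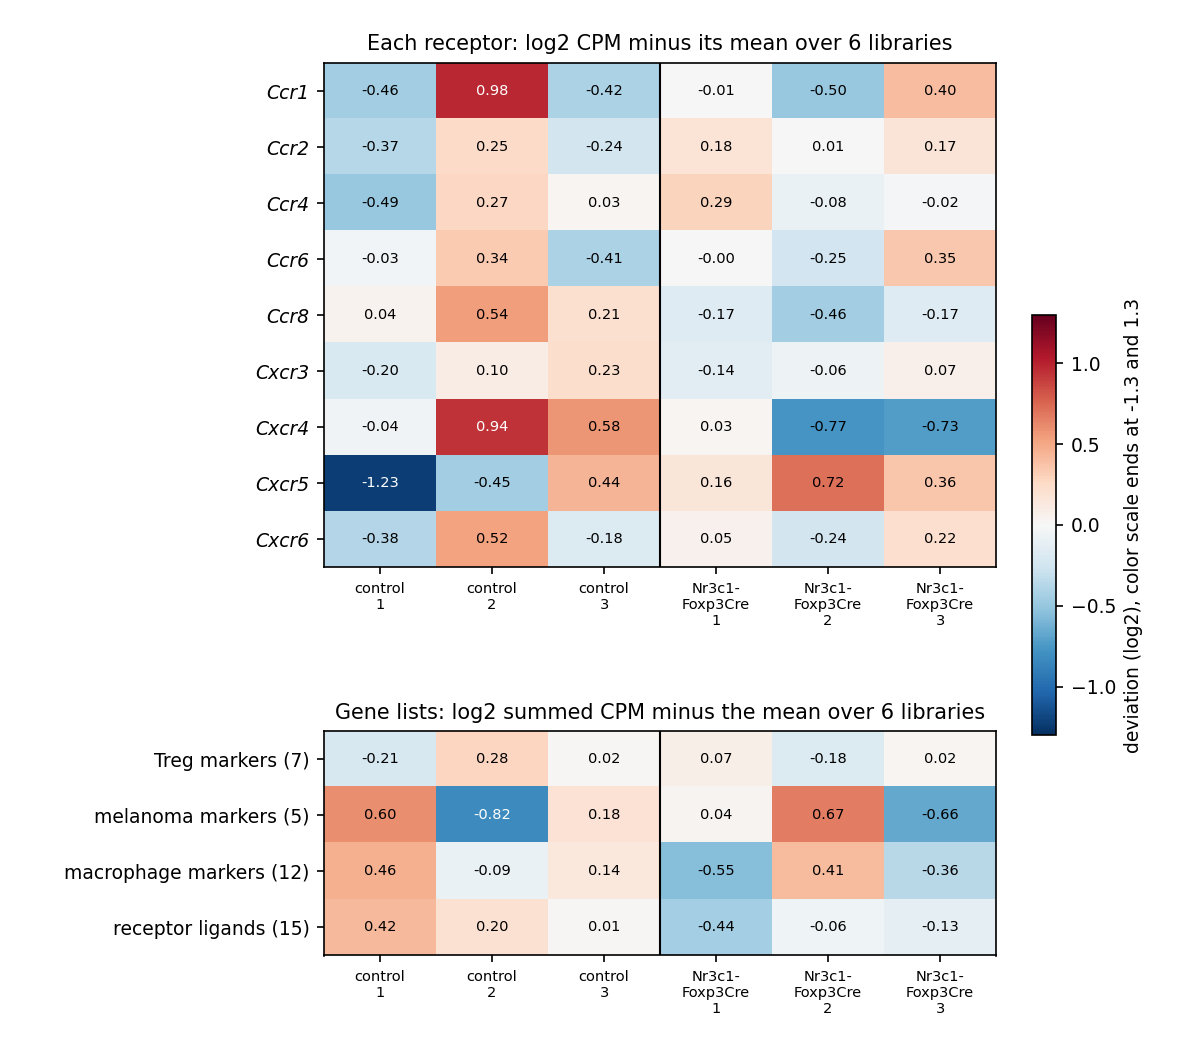
Deviation (log2, color and number) of each library (x axis) from the mean over 6 libraries, for the 9 receptors (top) and for the summed CPM of 4 gene lists (bottom), with a line between the 3 control and the 3 *Nr3c1*-Foxp3Cre libraries. *Ccr8* is above its mean in each control library and below it in each *Nr3c1*-Foxp3Cre library, and melanoma markers are lowest in control 2 and *Nr3c1*-Foxp3Cre 3.

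Set against the T cell genes of the same library, a scale chosen after the values were seen, *Ccr8* and *Cxcr4* were again lower. The *Cd3* mean differed little between the groups, so this scale could hardly change their log2 fold changes. *Ccr8* went from -0.53 to -0.49 and *Cxcr4* from -0.98 to -0.94. *Ccr8* minus the *Cd3* mean was -0.13, 0.00 and -0.28 in control and -0.55, -0.73 and -0.60 in *Nr3c1*-Foxp3Cre libraries on the log2 scale. *Cxcr4* minus the *Cd3* mean was -5.52, -4.91 and -5.22 in control and -5.65, -6.35 and -6.47 in *Nr3c1*-Foxp3Cre libraries. On this scale the groups did not overlap for either gene, nor for *Ccr2*, which was higher. These are 3 of the 9 receptors, beside 7.12% of all genes on the same scale. *Cxcr5* overlapped but had an unadjusted p of 0.0393 there, and the adjusted p of all 4 was 1.0.

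*Ccr8* and *Cxcr6* varied together among libraries of the same genotype. The deviations from the group means of these genes correlated at r = 0.971 over the 6 libraries, which share depth and composition. Some other pairs were about as close, such as *Ccr1* with *Cxcr6* (0.983), *Ccr2* with *Cxcr6* (0.974) and *Ccr2* with *Ccr8* (0.949). Others were not, such as *Ccr8* with *Cxcr5* (0.066). The log2 ratio of *Ccr8* to *Cxcr6*, chosen after the values were seen, was 0.04, -0.37 and -0.00 in control and -0.61, -0.61 and -0.77 in *Nr3c1*-Foxp3Cre libraries. The log2 ratio of *Ccr8* to *Cxcr3* was 0.60, 0.80 and 0.33 in control and 0.32, -0.04 and 0.12 in *Nr3c1*-Foxp3Cre libraries, so its groups nearly met. Both ratios were formed after *Ccr8* was seen to be lower, so they are given as descriptions and are no separate results.

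Of 13 other chemokine receptors listed, 5 had values and 0 were called. *Ccr7*, which guides T cells into lymph nodes, was at 7.05, 7.50 and 7.07 log2 CPM in control and 6.95, 6.63 and 6.20 in *Nr3c1*-Foxp3Cre libraries, with no overlap (log2 fold change -0.61, unadjusted p = 0.0108, adjusted p = 1.0). *Cx3cr1*, the fractalkine receptor of effector T cells and macrophages, was also without overlap, at a log2 fold change of -1.19 (unadjusted p = 0.0142). *Ccr3* was at 0.14, *Xcr1* at 0.16 and *Ccrl2*, an atypical receptor, at -0.01.

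The ligands of the 9 receptors were mostly lower in *Nr3c1*-Foxp3Cre libraries. Of 19 ligand genes 15 had values, 13 were lower and 2 higher, 0 were called and 6 had an unadjusted p under 0.05, all lower, beside 1.65% of all genes in that direction, with a median log2 fold change of -0.64. Without *Nr3c1*-Foxp3Cre 1 the 6 were 3 (*Ccl8*, *Ccl12* and *Cxcl9*), and without *Nr3c1*-Foxp3Cre 2 they were 8. For the CCR8 ligands, *Ccl8* was at -1.11 (SE 0.34, unadjusted p = 0.00869) and *Ccl1* at -0.64 (SE 0.33, unadjusted p = 0.0802). *Cxcl12*, the CXCR4 ligand, was at -1.42 (SE 0.63, unadjusted p = 0.0502) and at -0.70 without *Nr3c1*-Foxp3Cre 1, and *Cxcl16*, the CXCR6 ligand, at -0.73 without overlap. Of the CXCR3 ligands, *Cxcl9* was at -1.34 without overlap and *Cxcl10* at -0.21. For CCR2, *Ccl12* was at -1.45 without overlap, *Ccl7* at -1.22 (-0.77 without *Nr3c1*-Foxp3Cre 1) and *Ccl2* at -1.09 (-0.70 without control 1). For CCR1, *Ccl6* was at -0.53, *Ccl9* at -0.41, *Ccl3* at -0.07 and *Ccl5* at 0.02. *Ccl4*, a close relative of *Ccl3*, was at -0.19, and *Ccl22*, for CCR4, at 0.73 with geometric means of only 1.01 and 1.67 CPM. Ligands with large negative values were low as well. In control and *Nr3c1*-Foxp3Cre libraries the geometric means were 3.26 and 1.29 CPM for *Cxcl9* and 3.94 and 1.475 CPM for *Cxcl12*. They were 7.85 and 2.87 CPM for *Ccl12* and 6.72 and 4.04 CPM for *Cxcl16*.

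Several of these ligands can be made by macrophages and monocytes, whose markers are given beside them. The lists held no markers of stromal cells, and which cells made the ligand RNA was not tested. Of the 12 markers measured, 11 were lower in *Nr3c1*-Foxp3Cre libraries, 0 at an unadjusted p under 0.05, and their summed level was 586, 399 and 468 CPM in control and 290, 564 and 330 CPM in *Nr3c1*-Foxp3Cre libraries. The defining markers *Lyz2*, *Cd68*, *Csf1r* and *Adgre1* were detected in every library. The summed ligands were 460, 395 and 347 CPM in control and 254, 331 and 315 CPM in *Nr3c1*-Foxp3Cre libraries. The marker sums overlapped between the groups and the ligand sums did not. *Nr3c1*-Foxp3Cre 2 was high in markers and below every control library in summed ligands, but its single ligands went both ways. *Ccl2* (4.50 log2 CPM), *Ccl7* (4.52) and *Ccl6* (5.90) were above controls 2 and 3 there. *Ccl12*, *Cxcl9* and *Cxcl16* were below every control library. The part of these cells in the ligand values was not tested.

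The shared signaling machinery of the receptors was measured for 37 of 39 listed genes, from inhibitory G proteins to integrins. Of these 23 were higher and 14 lower, 0 were called and 2 had an unadjusted p under 0.05, beside 3.26% of all genes. The groups did not overlap for 3 of the 37, beside 7.41% of all genes, and the median log2 fold change was 0.03. *Plcb3*, a phospholipase C downstream of G proteins, was at 0.38 (unadjusted p = 0.0309), and *Arrb2*, an arrestin, at -0.27 (unadjusted p = 0.0340), both without overlap. *Plcb2* was at 0.64 (unadjusted p = 0.0550) and *Rgs1*, which ends G protein signals in T cells, at -0.39 (unadjusted p = 0.0637). *Plcb2* was at 0.35 and *Rgs1* at -0.61 without control 1, *Rgs1* at -0.20 without control 2, and *Plcb3* at 0.24 without *Nr3c1*-Foxp3Cre 3. Of the 37 genes, 28 were lower without control 1 and 22 without *Nr3c1*-Foxp3Cre 1, and no gene of this list had an unadjusted p under 0.05 without *Nr3c1*-Foxp3Cre 1.

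Transcription factors tied to Treg subsets were compared beside the receptors. All 9 had values and 0 were called. *Id2*, an inhibitor of E proteins found in effector Tregs, was at 9.09, 9.64 and 9.22 log2 CPM in control and at 8.78, 8.47 and 8.64 in *Nr3c1*-Foxp3Cre libraries, with no overlap (log2 fold change -0.69, SE 0.15, unadjusted p = 0.00122, adjusted p = 0.544). *Id3*, its counterpart in resting Tregs, was at 0.52 (unadjusted p = 0.139), and at 0.33 without *Nr3c1*-Foxp3Cre 2 and 0.88 without *Nr3c1*-Foxp3Cre 3. *Tbx21*, which encodes T-bet, was at -0.01 and *Bcl6*, of follicular cells, at -0.14. *Irf4* was at 0.43 (0.15 without control 1), *Prdm1* at -0.20, *Gata3* at -0.06, *Batf* at -0.01 and *Klf2* at 0.03.

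As a description of likeness, each receptor was correlated with every other gene over the 6 libraries. *Ccr8* was most like *Lag3*, an inhibitory receptor of activated T cells (r = 0.992), whose mean was 4.60 log2 CPM in control and 3.68 in *Nr3c1*-Foxp3Cre libraries. *Cxcr4* was most like *Maff*, a small MAF protein (r = 0.993, 1.53 and 0.45 log2 CPM). The others were nearest to *Cd82* for *Ccr1* (r = 0.998), *Rnf19a* for *Ccr2* (0.992), *Zer1* for *Ccr4* (0.996), *Reep1* for *Ccr6* (0.992), *Ccdc138* for *Cxcr3* (0.972), *N4bp2* for *Cxcr5* (0.983) and *Pld3* for *Cxcr6* (0.995). The median of the highest r over all 12153 genes was 0.993, so values of this size are the rule with 6 libraries. Among genes with a mean of at least 5 log2 CPM the nearest gene changed for 5 of the 9, with *Id2* nearest to *Ccr8* (r = 0.986) and *Rab18* to *Cxcr4* (r = 0.976). Among the receptors, 30 of 36 pairs had r above 0, with a median r of 0.399. *Ccr1* and *Cxcr6* were nearest (r = 0.978), and *Ccr8* and *Cxcr4* were at r = 0.921. Both *Ccr8* and *Cxcr4* were lower in *Nr3c1*-Foxp3Cre libraries, and that difference between groups enters this r. Their deviations from the group means correlated at r = 0.779.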

How the data were processed

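RNA was measured in 6 libraries of tumor Tregs, 3 control and 3 *Nr3c1*-Foxp3Cre, grouped by the genotype in the sample labels. Per the labels and the methods of the study, reads were trimmed (Cutadapt), aligned to mm10 (STAR) and turned into expected counts with RSEM and GENCODE M21, after which low genes were dropped, libraries were quantile normalized and limma-voom was run. The authors deposited the normalized log2 CPM values, and each library sums to 999633 or 999634 CPM on the linear scale. Voom weights need counts and were not recomputed, so limma 3.58.1 (R 4.3.3) was fitted to all 12153 genes using a mean-variance trend and no term but genotype, and p-values were adjusted across the whole table (Benjamini-Hochberg). An exact permutation test, two-sided, was run on single values (scipy 1.17.1). The fit was also run on simulated data, and no result here rests on that run. Its noise was independent between genes, unlike the shared spread of these libraries, and the planted changes were larger than that of *Ccr8*.

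Positions and lengths came from GENCODE M21 on mm10, with 12130 identifiers (99.81%) matched. Levels per kb used merged exons, and promoters came from RefSeq. The receptors and the gene lists were chosen with earlier results of these data known. Some genes are not reported here. Genes named were all receptors and ligands of the lists with values, the 4 signaling genes with the smallest p where none was called, all listed Treg factors, the check of the deletion, markers, and the gene most like each receptor. *Cd3d*, *Cd3g*, *Bcl9l* and the ratios of *Ccr8* to *Cxcr6* and *Cxcr3* were added after seeing the values. Alternatives were limma with no trend, with a robust prior, with vooma weights or with sample quality weights, a minimum mean log2 CPM of 1, a floor at log2 CPM 0, median centering, cyclic loess, the replicate number as a block, leaving out each library and, chosen after seeing the data, centering on *Cd3d*, *Cd3e* and *Cd3g*.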

Additional observations from a re-analysis of the deposited data

How the results depend on the processing

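The receptors were fitted under 16 alternatives, and 0 of 9 was called in each. *Ccr8* stayed between -0.64 and -0.39 and *Cxcr4* between -1.25 and -0.76, both at an unadjusted p under 0.05 in all 16, with adjusted p from 0.168 and 0.187 (sample quality weights) to 1.0. Leaving out control 2 gave the weakest values of both. Over all genes, 7 calls became 19 with sample quality weights (1376 at an unadjusted p under 0.05), 4 when centered on *Cd3d*, *Cd3e* and *Cd3g*, 0 by limma without a trend (469) and 0 to 8 when 1 library was left out (0 without control 3, with 290, and without *Nr3c1*-Foxp3Cre 2, with 373; 1 without *Nr3c1*-Foxp3Cre 1 or 3). The numbers of the replicates did not pair the libraries (correlations of deviations -0.117, -0.329 and -0.0246), and with the replicate block limma called 0 genes (275 unadjusted). *Tsc22d3* lost its call in 6 of the 16 (adjusted p up to 0.221), among them without control 3 or any *Nr3c1*-Foxp3Cre library.

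Directions reversed for genes whose value was between -0.41 and 0.16. With sample quality weights, *Ccr1* was at 0.34, *Ccrl2* 0.045, *Ccl3* 0.17, *Ccl5* -0.20, *Ccl9* 0.11, *Gata3* 0.020 and *Batf* 0.058. Centered on *Cd3* genes, *Ccrl2* was at 0.024, *Tbx21* 0.031 and *Batf* 0.030. Leaving out 1 library, ranges were -0.32 to 0.40 for *Ccr1*, -0.088 to 0.29 for *Ccr4*, -0.12 to 0.25 for *Ccr6*, -0.21 to 0.0072 for *Cxcr3*, -0.16 to 0.29 for *Cxcr6*, -0.10 to 0.55 for *Ccr3*, -0.13 to 0.13 for *Ccrl2*, -0.19 to 0.52 for *Xcr1*, -0.22 to 0.054 for *Ccl3*, -0.12 to 0.16 for *Ccl5*, -0.36 to 0.027 for *Cxcl10*, -0.21 to 0.31 for *Foxp3*, -0.26 to 0.19 for *Gata3*, -0.41 to 0.095 for *Bcl6*, -0.089 to 0.081 for *Batf*, -0.35 to 0.0055 for *Prdm1*, -0.046 to 0.14 for *Klf2* and -0.16 to 0.16 for *Tbx21*. The order per kb in control held for 5 of 9 receptors with the longest transcript as length, and Spearman's rho tied 8 to 80 genes at 1.0 with each receptor. Without turning, leaving out 1 library moved others by over 1.5 times: *Ccr2* 0.11 to 0.42, *Cxcr5* 0.42 to 1.25, *Ccl1* -1.0 to -0.37, *Ccl2* -1.64 to -0.70, *Ccl4* -0.38 to -0.03, *Ccl6* -0.96 to -0.23, *Ccl7* -1.78 to -0.77, *Ccl9* -0.73 to -0.20, *Ccl22* 0.0021 to 1.42, *Cxcl12* -1.84 to -0.70, *Irf4* 0.15 to 0.62, *Id3* 0.33 to 0.88, *Plcb2* 0.35 to 0.86, *Plcb3* 0.24 to 0.49, *Rgs1* -0.61 to -0.20 and *Fkbp5* -0.27 to -0.07. The causes were not tested.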
